A study of Mus musculus with 34 samples.

Results

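Cholesterol synthesis, uptake and efflux in the cortex was followed through 34 named genes: 18 enzymes of the sterol pathway, 5 regulators of the sterol response and 11 genes of sterol transport, efflux and turnover. Members were chosen by gene symbol, and each gene was read from its brightest probe set, the oligonucleotide group that reports a transcript on the array. Probe sets were found for 31 of the 34, that is 17 enzymes, all 5 regulators and 9 transport genes, out of 18193 genes measured. Acat2, Nr1h2 and Soat1 had no probe set under their name and have no value here.

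Cortex was taken from mice at 15 weeks and profiled on Affymetrix mouse genome arrays, with 1 array per mouse and log2 expression levels as the unit. There were 9 Dble::R6/2, 9 R6/2, 8 Hdac4HET and 8 WT mice, of both sexes and all of the CBA X C57Bl/6 strain. R6/2 mice model Huntington's disease and are transgenic for a mutant exon 1 fragment of human HTT under the HTT promoter. Hdac4HET mice carry a knock-out allele of Hdac4 in heterozygous form, in every cell of the body. Dble::R6/2 mice carry both mutations and came from R6/2 males crossed to Hdac4HET females, so the 4 genotypes were bred from the same cross. In Hdac4HET mice the second brightest Hdac4 probe set read at most 7.50, against at least 7.54 in WT, and in Dble::R6/2 mice at most 7.56, against at least 7.67 in R6/2. The brightest read at most 7.74 in Hdac4HET, against at least 7.81 in WT, but overlapped between Dble::R6/2 (at most 7.80) and R6/2 (at least 7.54), and the dimmest overlapped in both comparisons.

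The adult brain makes its own cholesterol, because the sterol carried in blood does not cross the blood-brain barrier. Enzymes of the pathway are transcribed under the SREBP factors, which the escort protein SCAP releases from the endoplasmic reticulum when membrane sterol is low and which the INSIG proteins retain there when it is high. Astrocytes pass sterol to neurons on ApoE particles, loaded by the efflux transporters ABCA1 and ABCG1 under the LXR receptors, and neurons remove the excess through the hydroxylase CYP46A1.

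Some arrays stood apart from the rest. R6/2 replicate 2 carried keratin transcripts (Krt10 at 9.21, against 7.93 or less on every other array) and had a low Apoe level, so values are given without it where that matters. Prl, a pituitary hormone gene, was above a log2 level of 8 on 4 arrays (WT replicates 2, 6 and 7 and Hdac4HET replicate 1). The sex label did not match the level of Xist on 15 of the 34 arrays, and a fit with sex read from Xist is among the alternatives. Array medians ran between 5.44 and 5.52, and the number of arrays limits the precision. Whether a lower value reflects fewer cells of a type or less RNA per cell cannot be told apart in bulk cortex.

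The start-proximal sequence of 28 of the 34 listed genes was found in RefSeq (assembly GRCm38.p6), while Fdps, Fdft1, Sqle, Stard4, Npc1 and Abcg1 had no entry. The 250 bases before each start were searched on both strands for the letters TCACNCCA, the core of a sterol regulatory element, and for CCAAT, the box bound by NF-Y, a factor that works beside the SREBPs. No match of the first overlapped a match of the second in the members. The promoters of 5 genes are shown. The start used for Abca1 lies inside the annotated gene (outer end at 53159988), so its window falls partly within the gene. Hmgcs1, Msmo1 and Srebf2 hold both motifs and were lower in R6/2 cortex, Idi1 was lower and holds CCAAT boxes alone, and Abca1, which holds neither, was higher. Srebf1, Insig2 and Npc2, not shown, were also higher and do hold CCAAT. Capitals mark TCACNCCA and CCAAT, read on either strand (CCAAT appears as ATTGG on the other).
Hmgcs1 (chr13:119690101-119690350, plus strand): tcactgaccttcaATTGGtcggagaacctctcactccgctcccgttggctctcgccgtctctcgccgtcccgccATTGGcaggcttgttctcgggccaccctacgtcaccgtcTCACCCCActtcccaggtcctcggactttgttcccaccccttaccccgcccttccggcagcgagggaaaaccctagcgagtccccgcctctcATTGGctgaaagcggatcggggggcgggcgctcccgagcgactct
Msmo1 (chr8:64733579-64733828, minus strand): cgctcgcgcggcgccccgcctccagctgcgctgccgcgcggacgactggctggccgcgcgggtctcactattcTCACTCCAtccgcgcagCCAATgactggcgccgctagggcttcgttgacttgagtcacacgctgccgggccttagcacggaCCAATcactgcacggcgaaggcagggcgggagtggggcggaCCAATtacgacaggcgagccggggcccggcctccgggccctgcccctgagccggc
Srebf2 (chr15:82147019-82147268, plus strand): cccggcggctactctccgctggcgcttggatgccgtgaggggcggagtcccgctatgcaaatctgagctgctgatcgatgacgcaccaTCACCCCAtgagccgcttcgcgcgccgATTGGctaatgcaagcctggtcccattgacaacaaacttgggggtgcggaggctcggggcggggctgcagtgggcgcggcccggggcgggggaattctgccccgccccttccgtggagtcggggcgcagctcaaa
Idi1 (chr13:8885356-8885605, plus strand): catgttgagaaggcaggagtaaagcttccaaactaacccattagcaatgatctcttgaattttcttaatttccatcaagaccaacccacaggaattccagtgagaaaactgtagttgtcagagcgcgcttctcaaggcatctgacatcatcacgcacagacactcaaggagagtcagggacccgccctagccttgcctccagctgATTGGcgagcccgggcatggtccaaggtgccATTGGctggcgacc
Abca1 (chr4:53159896-53160145, minus strand): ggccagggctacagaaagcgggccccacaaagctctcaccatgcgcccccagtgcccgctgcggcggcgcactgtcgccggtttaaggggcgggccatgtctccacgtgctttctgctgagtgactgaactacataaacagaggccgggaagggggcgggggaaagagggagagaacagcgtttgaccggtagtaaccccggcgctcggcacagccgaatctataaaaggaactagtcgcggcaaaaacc

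Motifs were counted per gene, over all promoters of a gene where it has several (7 of the 28 members do). TCACNCCA was present in 4 of the 28 members (Hmgcs1, Msmo1, Srebf2 and Apoe, the last in 1 of its 3 promoters), which is 14.3%, and in 4.2% of all genes with a promoter of the same length. CCAAT was present in 21 of the 28 members (75%) and in 37.5% of all genes. Among 25 members with both a promoter and a probe set, CCAAT was found in all 13 that were lower in R6/2 cortex and in 7 of the 12 that were not, beside 39.4% of the genes measured on the arrays. All 14 measured enzymes with a promoter held it, Mvk, Pmvk, Lss and Hsd17b7 included, which were not lower, so among the enzymes the box did not set lower genes apart. Of the members called higher in R6/2 cortex, Srebf1, Insig2 and Npc2 held it and Abca1 and Scap did not. The GC box GGGCGG was found in 13 of the 13 and in 9 of the 12, beside 53.4% of the measured genes. Median GC content, taking the promoter richest in GC for each gene, was 64.8% in the lower members, 63% in the other members and 58.8% in the measured genes. These matches are letters in a window, and binding was not measured.

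R6/2 cortex had less transcript for most of the sterol pathway than WT cortex. Of the 17 enzymes measured, 13 were lower, 0 were higher and 4 did not pass (limma, Benjamini-Hochberg adjusted p of 0.05 or less over 45037 probe sets). Over all 18193 genes, 11.8% were lower and 20.2% were higher in the same comparison. The median log2 difference was -0.51 over the enzymes and 0.02 over all genes. All 31 members together gave 17 lower, 5 higher and 9 that did not pass. On 10 of the 31, every R6/2 array lay below every WT array, which was so for 3.81% of all genes. Of those 10 genes, 7 are enzymes (Mvd, Idi1, Fdps, Cyp51, Msmo1, Nsdhl and Ebp), 2 are regulators (Insig1 and Srebf2) and 1 is a transport gene (Stard4). Without R6/2 replicate 2 the count was 14 enzymes lower, beside 13.1% of all genes. Without the 4 arrays high in Prl it was 13, beside 8.72% of all genes.

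**Figure D1:**
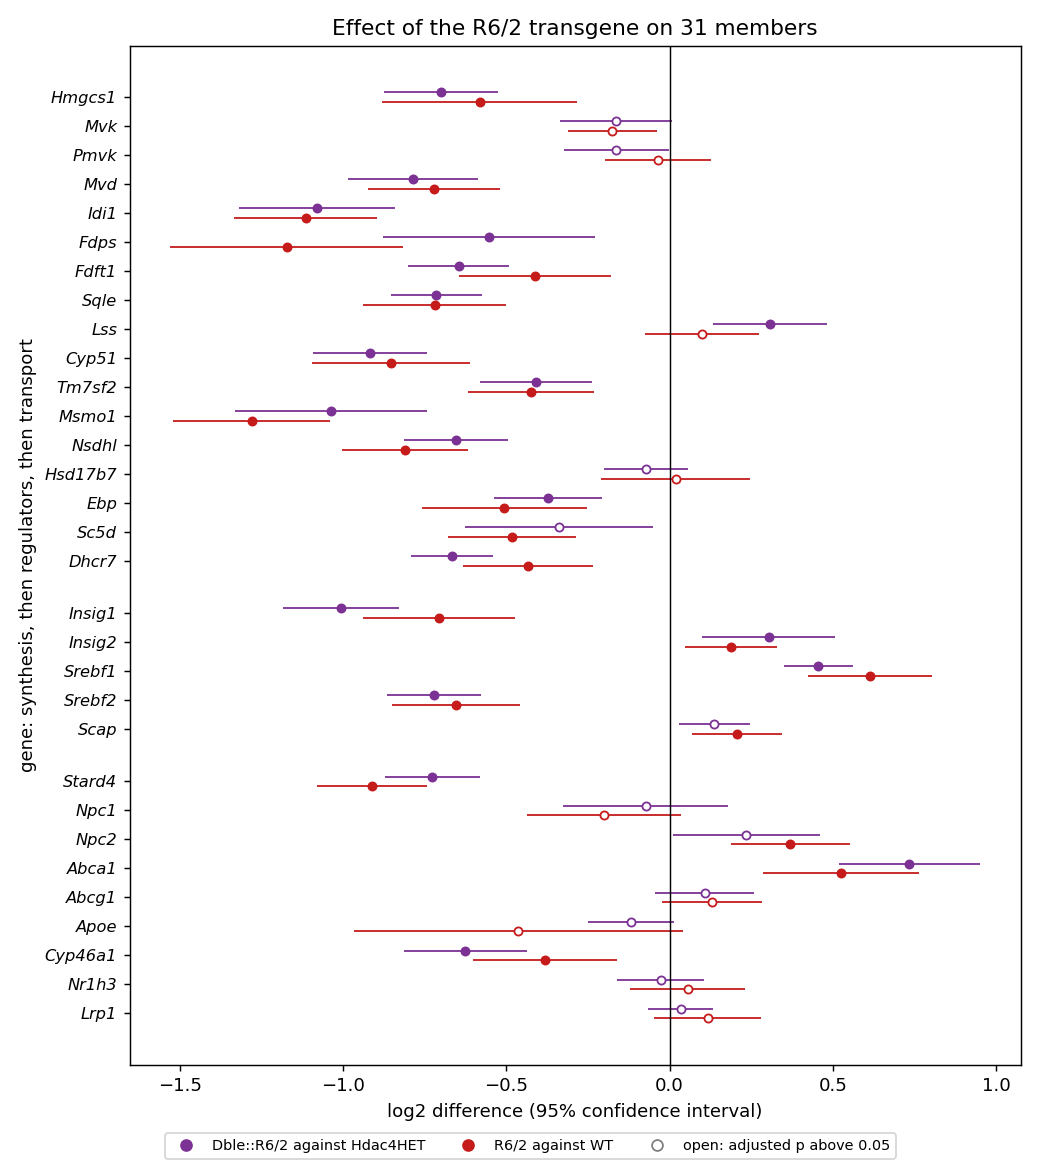
Log2 difference of each of the 31 members for Dble::R6/2 against Hdac4HET and for R6/2 against WT, with 95% confidence intervals on the horizontal axis and genes down the vertical axis in the order synthesis, regulators, transport. Filled points passed an adjusted p of 0.05. Most enzymes lie left of 0 in both comparisons, Msmo1 and Idi1 among the farthest, and Srebf1 and Abca1 lie right of 0 in both.

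The mevalonate part of the pathway opens with Hmgcs1, which condenses acetoacetyl-CoA and acetyl-CoA. Its lowest, median and highest log2 levels were 10.83, 11.07 and 12.13 in R6/2 cortex, against 11.53, 11.77 and 12.12 in WT. Of the 9 R6/2 arrays 7 lay below every WT array, and replicate 2 lay above all of them. The difference was -0.58 ± 0.14 (SE, limma adjusted p = 0.00454), and -0.70 without that replicate (adjusted p = 2.57e-05, between 7.29e-09 and 0.0125 over all alternatives). The promoter of Hmgcs1 shown above holds 1 TCACNCCA match and 3 CCAAT matches. Its other 4 probe sets were lower as well, with log2 differences between -1.59 and -0.77, and the mean over all 5 differed by -0.94.

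The kinases that follow changed little. Mvk, mevalonate kinase, averaged 6.59 ± 0.10 in R6/2 and 6.77 ± 0.14 in WT (SD, n = 9 and 8), a difference of -0.17 ± 0.07 that just missed the threshold (limma adjusted p = 0.053). The adjusted p lay between 0.0113 and 0.174 over 27 alternatives and passed in 7 of them. Pmvk, phosphomevalonate kinase, differed by -0.04 ± 0.08 (SE, limma adjusted p = 0.8). Mvd, the decarboxylase that yields isopentenyl diphosphate, did fall. Its levels were 5.93, 6.16 and 6.64 (lowest, median, highest) in R6/2, against 6.75, 7.01 and 7.15 in WT, with no overlap. That left 60.7% of the WT level (limma adjusted p = 1.87e-05).

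Idi1 and Fdps, which isomerise isopentenyl diphosphate and join the units into farnesyl diphosphate, were among the most strongly lowered genes of the pathway. Idi1 read 7.32, 7.52 and 8.18 (lowest, median, highest) in R6/2 and 8.57, 8.76 and 8.82 in WT. The highest R6/2 array lay below the lowest WT array, and the WT arrays were tightly grouped. The log2 difference of -1.11 ± 0.11 left 46.2% of the WT level (limma adjusted p = 3.58e-07). Fdps read 6.35, 7.36 and 7.66 in R6/2 and 7.76, 8.32 and 8.68 in WT. It was the most variable enzyme within R6/2, with replicate 2 lowest, and the groups again did not overlap. Its level was 44.4% of WT (log2 difference -1.17 ± 0.17, limma adjusted p = 4.28e-05). Its second probe set, among the dimmest on the array, differed by -0.03 and did not pass, and the mean of both differed by -0.60.

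**Figure D2:**
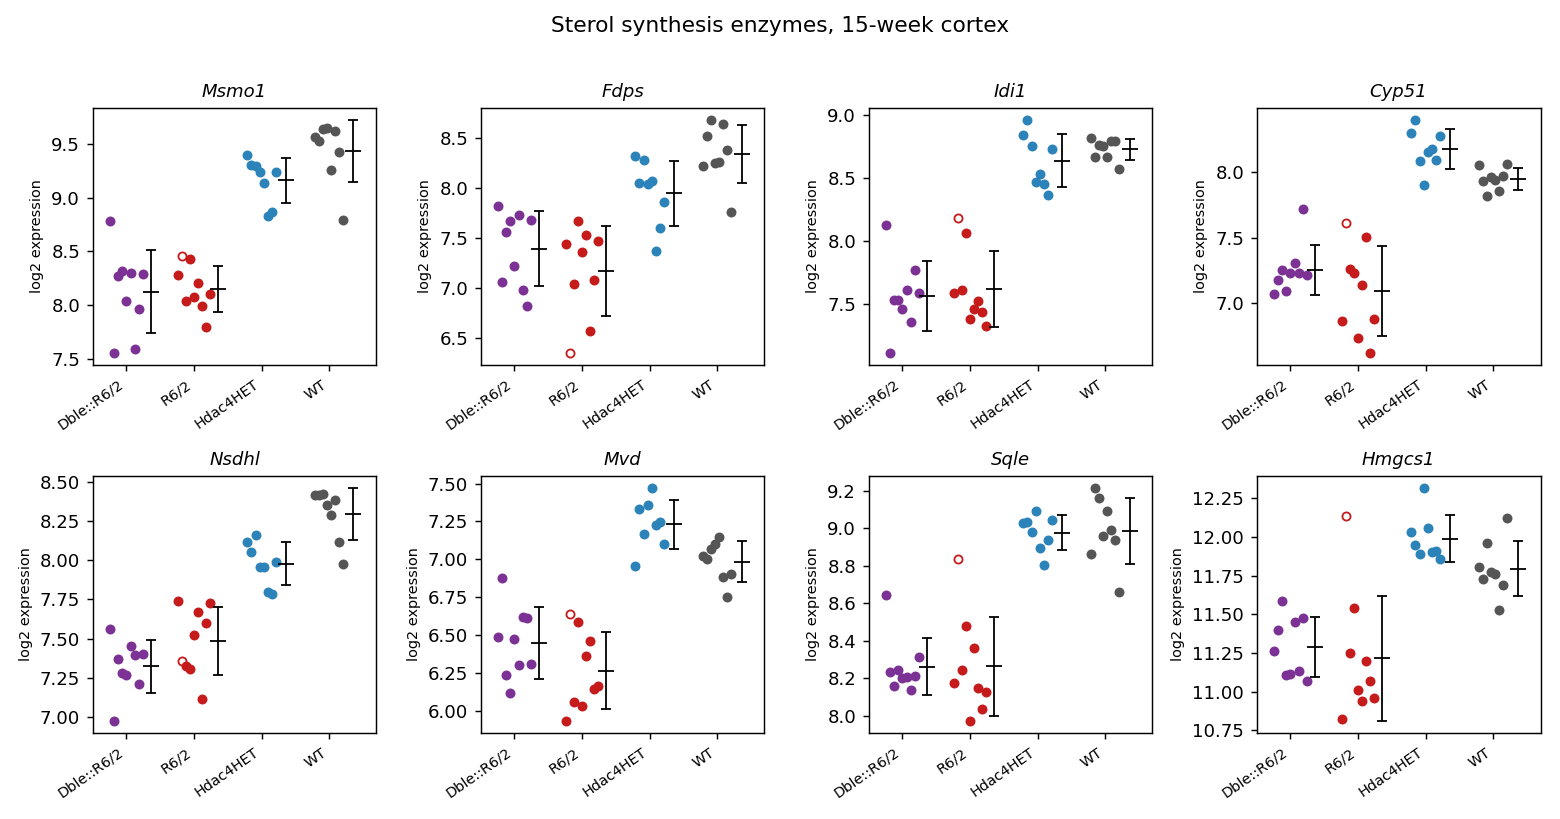
Log2 expression (vertical axis) of 8 sterol enzymes on each array of Dble::R6/2, R6/2, Hdac4HET and WT cortex. Points are single mice, the black mark and bar beside them are the mean and SD, and the open point is R6/2 replicate 2. Both groups with the transgene sit below both groups without it for Msmo1, Idi1, Cyp51 and Nsdhl, and replicate 2 is as high as WT arrays for Hmgcs1 and Sqle.

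Squalene is made by Fdft1 and oxidised by Sqle, the first oxygen-dependent step. Sqle had levels of 7.97, 8.17 and 8.84 (lowest, median, highest) in R6/2, against 8.66, 8.97 and 9.21 in WT, and 8 of the 9 R6/2 arrays lay below every WT array. The exception was again replicate 2. The difference was -0.72 ± 0.10 (SE, limma adjusted p = 4.38e-05). Fdft1 was lower by a smaller amount, at 75.2% of WT (limma adjusted p = 0.00911). The log2 difference of Fdft1 was -0.41 and ran between -0.50 and -0.29 over 27 alternatives, all of which passed. Lss, which closes squalene epoxide into lanosterol, was not lower. It read 7.42, 7.69 and 8.08 in R6/2 and 7.47, 7.60 and 7.80 in WT, and the difference was 0.10 ± 0.08 with a 95% interval of -0.07 and 0.27 (SE, limma adjusted p = 0.433).

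Removal of the methyl groups of lanosterol takes Cyp51, Tm7sf2, Msmo1, Nsdhl and Hsd17b7. Msmo1, the methylsterol monooxygenase, showed the largest fall of the 31 members when each gene was read from its brightest probe set. Its levels were 7.80, 8.10 and 8.46 (lowest, median, highest) in R6/2, against 8.79, 9.55 and 9.64 in WT. No R6/2 array reached a WT array, although WT replicate 8 lay well below the rest of its group. The log2 difference of -1.28 ± 0.11 left 41.2% of WT (limma adjusted p = 1.95e-07). Its dim second probe set, at -0.32, did not pass, and the mean of both differed by -0.80, a smaller change than that of Idi1 by its own mean (-1.04). Cyp51, the lanosterol demethylase, read 6.62, 7.14 and 7.61 in R6/2 and 7.82, 7.95 and 8.06 in WT, again without overlap. It was at 55.4% of WT (-0.85 ± 0.12, limma adjusted p = 2.17e-05), and its 2 dimmer probe sets, at -0.31 and -0.11, did not pass. The mean over all 3 differed by -0.43.

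Nsdhl, the decarboxylating sterol dehydrogenase, is X-linked, as is Ebp. Nsdhl read 7.12, 7.52 and 7.74 (lowest, median, highest) in R6/2 and 7.97, 8.37 and 8.42 in WT. The groups did not overlap, and the level was 57% of WT (-0.81 ± 0.09, limma adjusted p = 2.94e-06). Tm7sf2, a sterol reductase, was at 74.5% of WT (limma adjusted p = 0.00182). Hsd17b7, the ketosteroid reductase of the same complex, did not pass on its brightest probe set (0.02 ± 0.11, limma adjusted p = 0.935). Of its other probe sets, the third in brightness was lower, with a log2 difference of -0.54 (limma adjusted p = 4.15e-04), and the second, at -0.30, did not pass. The probe sets of Hsd17b7 did not agree on a call.

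The last steps rearrange and reduce the sterol nucleus. Ebp, a sterol isomerase, was at 70.4% of WT, Sc5d, a sterol desaturase, at 71.6% and Dhcr7, the reductase that ends the Kandutsch-Russell branch, at 74.1%. Their limma adjusted p values were 0.00367, 6.82e-04 and 0.00193. R6/2 arrays lay below every WT array on 9 of 9 for Ebp and on 8 of 9 for Sc5d and Dhcr7.

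The 5 regulators split. Insig1, itself a target of the SREBPs, read 7.57, 7.98 and 8.56 (lowest, median, highest) in R6/2, against 8.60, 8.76 and 8.97 in WT. All 9 R6/2 arrays were below all 8 WT arrays, 2 of them by only a narrow gap. The difference was -0.70 ± 0.11 (SE, limma adjusted p = 9.49e-05), or 61.4% of WT. Srebf2, which encodes the SREBP that acts chiefly on sterol genes, read 7.61, 8.18 and 8.42 in R6/2 and 8.68, 8.82 and 9.07 in WT. It was lower on every R6/2 array, replicate 2 lowest, with a difference of -0.65 ± 0.09 (SE, limma adjusted p = 3.86e-05). Its second probe set was lower too, with a log2 difference of -0.70.

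Srebf1, whose products act chiefly on fatty acid genes, went the other way. It read 8.48, 8.61 and 8.96 (lowest, median, highest) in R6/2 and 7.82, 8.00 and 8.32 in WT. Every R6/2 array was higher than every WT array, and the level was 153% of WT (0.61 ± 0.09, limma adjusted p = 4.77e-05). Scap, the escort protein, rose to 115% of WT (limma adjusted p = 0.0244) and Insig2, the INSIG that is not induced by SREBP, to 114% (limma adjusted p = 0.0429). Without the 4 arrays high in Prl neither passed, at adjusted p of 0.10 for Scap and 0.139 for Insig2. Over all 27 alternatives the adjusted p ran between 0.00271 and 0.103 for Scap, which passed in 24, and between 0.00791 and 0.551 for Insig2, which passed in 11. Of the other probe sets of Insig2, the second was higher by 0.41 and the third, at -0.40, did not pass.

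**Figure D3:**
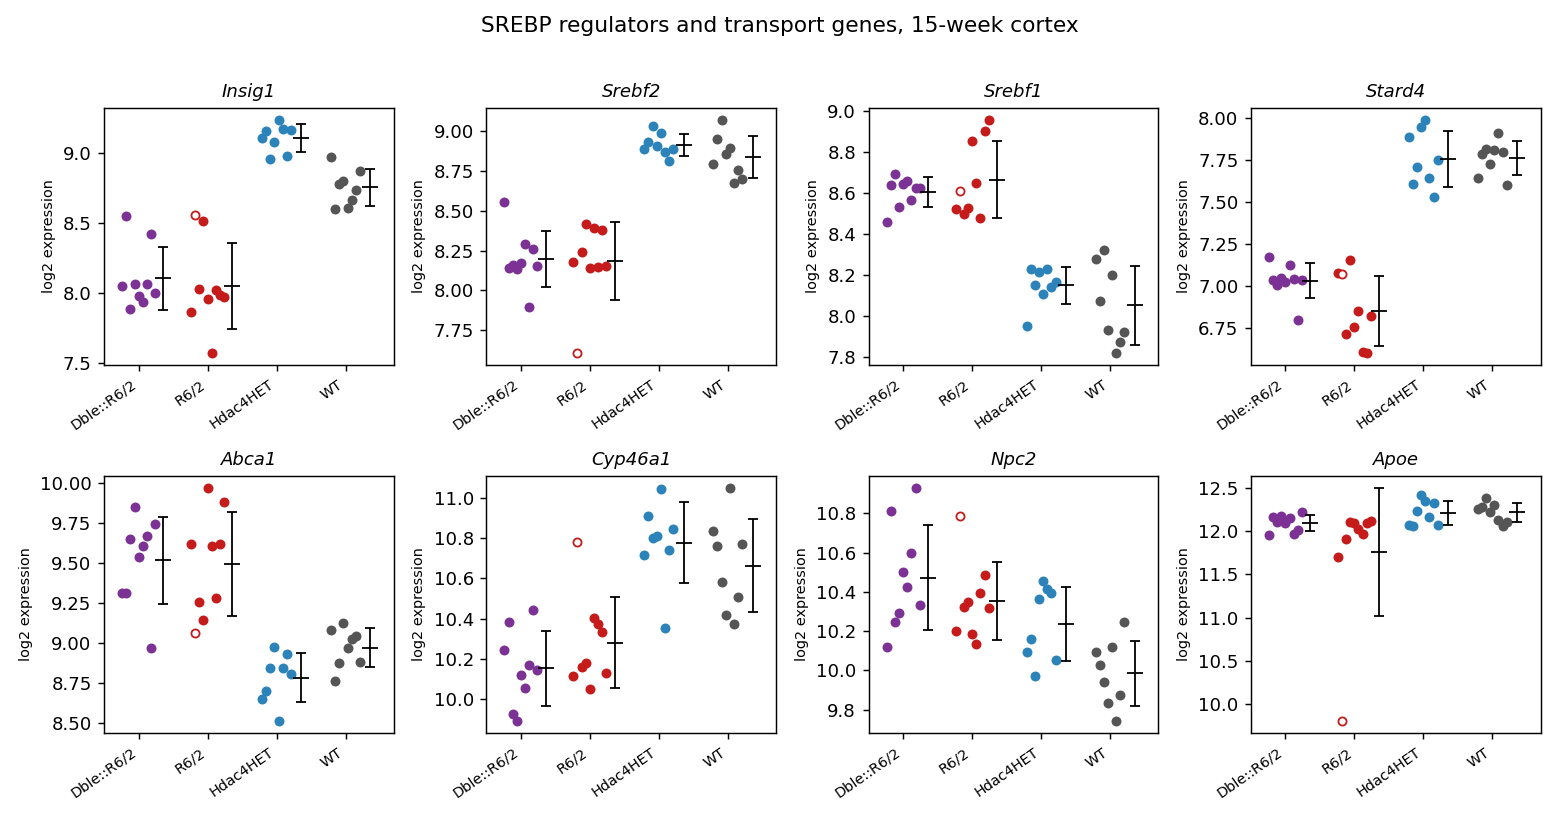
Log2 expression (vertical axis) of 3 SREBP regulators and 5 transport, efflux and turnover genes on each array of Dble::R6/2, R6/2, Hdac4HET and WT cortex. Points are single mice, the black mark and bar are the mean and SD, and the open point is R6/2 replicate 2. Insig1, Srebf2 and Stard4 are lower and Srebf1 is higher on every array with the transgene than on every array without it, and the open point is far below the others for Apoe.

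Among the transport genes, Stard4, a carrier of sterol between membranes, was the most strongly lowered. Its levels were 6.60, 6.82 and 7.16 (lowest, median, highest) in R6/2, against 7.60, 7.79 and 7.91 in WT. No R6/2 array came near the WT range. The difference was -0.91 ± 0.08 (SE, limma adjusted p = 1.61e-07), which left 53.2% of WT, and its other 2 probe sets were lower as well, at log2 differences of -0.87 and -0.58. Cyp46a1, the neuronal hydroxylase that turns cholesterol into a form able to leave the brain, read 10.05, 10.18 and 10.78 in R6/2 and 10.37, 10.67 and 11.05 in WT. The groups overlapped, with replicate 2 highest in R6/2 and 6 of the 9 below all WT arrays. It was at 76.8% of WT (-0.38 ± 0.10, limma adjusted p = 0.00998).

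Abca1, the transporter that loads sterol onto apolipoproteins, was higher in R6/2. It read 9.06, 9.61 and 9.97 (lowest, median, highest) in R6/2 and 8.76, 9.00 and 9.13 in WT. On 8 of 9 R6/2 arrays it was above every WT array. The level was 144% of WT (0.52 ± 0.11, limma adjusted p = 0.00177). Its 2 other probe sets are dim and did not pass, and the mean over all 3 did not pass either (log2 difference 0.15, adjusted p = 0.105, against 3.38e-04 as the lowest over 27 alternatives). Npc2, a lysosomal sterol carrier, was at 129% of WT on its brightest probe set (limma adjusted p = 0.00337), differed by -0.01 on the second and was lower on the third (-0.31). The direction of Npc2 thus depended on the probe set.

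Abcg1, Npc1, Nr1h3, Lrp1 and Apoe did not pass. Abcg1, another efflux transporter, differed by 0.13 ± 0.07 on its brightest probe set (SE, limma adjusted p = 0.223) and by 0.39 on the other (limma adjusted p = 0.00175). Nr1h3, which encodes an LXR receptor, was dim, at 4.51 ± 0.21 in R6/2 and 4.46 ± 0.12 in WT (SD, n = 9 and 8). Apoe read 9.80, 12.03 and 12.12 (lowest, median, highest) in R6/2 and 12.06, 12.25 and 12.39 in WT, the low value being replicate 2. With that array the difference was -0.46 ± 0.24 (SE, limma adjusted p = 0.177). Without it the difference of Apoe was -0.22 (adjusted p = 0.019), the 1 setting of 27 in which it passed. Over those settings adjusted p ran between 0.019 and 0.298. Lrp1, a receptor for ApoE, passed without replicate 2 as well (0.17, adjusted p = 0.0279, between 0.0112 and 0.569 over all alternatives), against 0.12 ± 0.08 with it.

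The transgene was tested again between mice that all carry the Hdac4 knock-out allele, on arrays separate from those above. In Dble::R6/2 against Hdac4HET cortex, 12 of the 17 enzymes were lower and 1 was higher, and the 31 members together gave 16 lower, 4 higher and 11 that did not pass. The shares of all genes were 11.7% lower and 18.3% higher. On 12 of the 31 members every Dble::R6/2 array lay below every Hdac4HET array, against 4.36% of all genes. The median difference was -0.65 over the enzymes and 0.02 over all genes. The 16 lower members were all among the 17 that were lower in R6/2 against WT, and 3 genes (Insig2, Srebf1 and Abca1) were higher in both. No member had opposite calls.

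Insig1 had its highest level of the 4 genotypes in Hdac4HET cortex. It read 7.89, 8.05 and 8.55 (lowest, median, highest) in Dble::R6/2 and 8.96, 9.13 and 9.24 in Hdac4HET, with no overlap. The difference was -1.01 ± 0.08 (SE, limma adjusted p = 5.3e-08), or 49.8% of Hdac4HET. Msmo1 read 7.56, 8.27 and 8.78 in Dble::R6/2 and 8.82, 9.24 and 9.39 in Hdac4HET, where the highest and the lowest array of the groups nearly met. Idi1 read 7.11, 7.53 and 8.13 in Dble::R6/2 and 8.37, 8.64 and 8.96 in Hdac4HET, and did not overlap. Levels were 48.7% of Hdac4HET for Msmo1 and 47.4% for Idi1 (limma adjusted p = 1.71e-05 and 9.88e-07).

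Hmgcs1, which overlapped between R6/2 and WT through replicate 2, separated fully. It read 11.07, 11.27 and 11.59 (lowest, median, highest) in Dble::R6/2, against 11.86, 11.93 and 12.32 in Hdac4HET. The level was 61.5% of Hdac4HET (-0.70 ± 0.08, limma adjusted p = 4.07e-06). Cyp51 read 7.07, 7.23 and 7.72 in Dble::R6/2 and 7.90, 8.16 and 8.40 in Hdac4HET, without overlap. Srebf2 read 7.89, 8.16 and 8.55 in Dble::R6/2 and 8.82, 8.90 and 9.04 in Hdac4HET, and again did not overlap. Mvd, Fdft1, Sqle, Nsdhl, Dhcr7 and Stard4 also lay below on every array, at 58.1, 63.9, 61, 63.6, 63 and 60.4% of Hdac4HET in that order.

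Fdps overlapped between Dble::R6/2 and Hdac4HET cortex. It read 6.82, 7.56 and 7.82 (lowest, median, highest) in Dble::R6/2 and 7.37, 8.04 and 8.31 in Hdac4HET, and only 4 of 9 Dble::R6/2 arrays lay below all Hdac4HET arrays. The level was 68.1% of Hdac4HET (-0.55 ± 0.15, limma adjusted p = 0.0124). Sc5d did not pass here (-0.34 ± 0.14, limma adjusted p = 0.0864). Lss was higher, at 124% of Hdac4HET (limma adjusted p = 0.0105), and its mean over all 3 probe sets did not pass. Cyp46a1 was at 64.8% of Hdac4HET (limma adjusted p = 3.59e-05). Averaged over every probe set of each gene, the log2 differences were smaller for Msmo1 (-0.67), Cyp51 (-0.56), Fdft1 (-0.36), Fdps (-0.26) and Abca1 (0.28), and all 5 still passed.

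Of the genes that were higher, Abca1 read 8.97, 9.61 and 9.85 (lowest, median, highest) in Dble::R6/2 and 8.51, 8.83 and 8.97 in Hdac4HET. Only the lowest Dble::R6/2 array fell within the Hdac4HET range. The level was 166% of Hdac4HET (0.73 ± 0.10, limma adjusted p = 2.68e-05). Srebf1 was higher on every Dble::R6/2 array, with 8.46, 8.62 and 8.69 in Dble::R6/2 and 7.95, 8.16 and 8.23 in Hdac4HET (limma adjusted p = 1.93e-06). Scap (0.14 ± 0.05) and Npc2 (0.24 ± 0.11) did not pass (limma adjusted p = 0.0619 and 0.131).

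The Hdac4 allele was then tested on the R6/2 background, the comparison that asks whether less Hdac4 alters these transcripts in the presence of the transgene. In Dble::R6/2 against R6/2, 0 of the 31 members were called by limma in either direction, and 0% of all genes were called lower and 0% higher. The methods' t-test, with the same adjustment, also called 0 members. At an unadjusted p under 0.05 there was 1 member, Stard4, which averaged 7.03 ± 0.10 in Dble::R6/2 and 6.85 ± 0.21 in R6/2 (SD, n = 9 each). Its difference was 0.18 ± 0.08 (SE, limma adjusted p = 0.869). The median difference of the 17 enzymes was 0.00, and the members ran between -0.16 for Nsdhl and 0.34 for Apoe. The Apoe value rests on R6/2 replicate 2 and was 0.09 without it.

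Intervals show what sizes these arrays leave possible. For Msmo1 the 95% interval of the difference ran between -0.31 and 0.26, for Idi1 between -0.32 and 0.21 and for Srebf2 between -0.19 and 0.21, all smaller in size than the falls of these genes in R6/2 against WT. For Insig1 it ran between -0.20 and 0.30 and for Abca1 between -0.25 and 0.30. Fdps was the least well determined enzyme, between -0.15 and 0.60. A missed threshold does not show that the genotypes are alike.

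**Figure D4:**
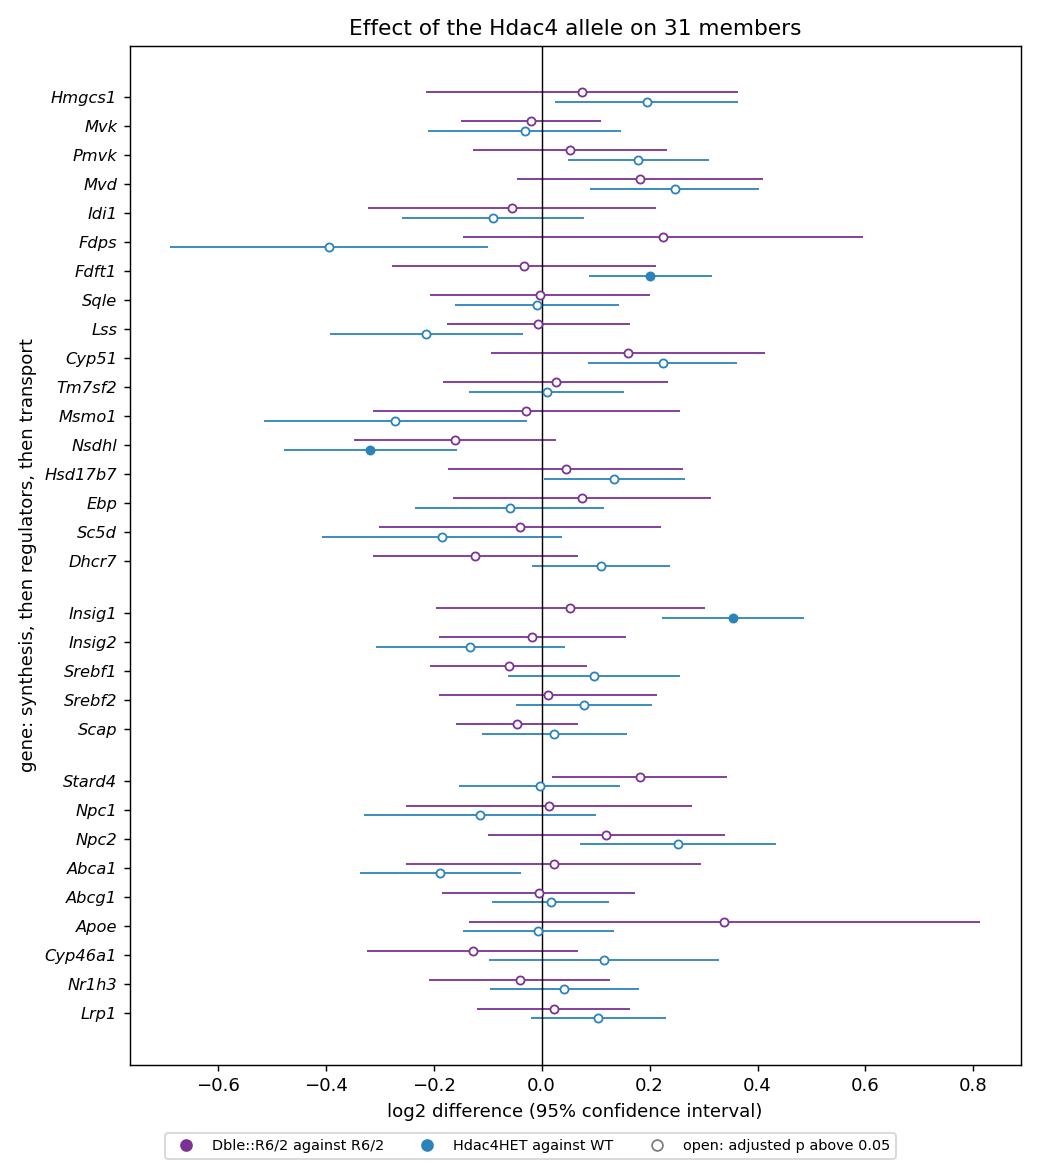
Log2 difference of each of the 31 members for Dble::R6/2 against R6/2 and for Hdac4HET against WT, with 95% confidence intervals on the horizontal axis and genes down the vertical axis. Filled points passed an adjusted p of 0.05, and only Insig1, Fdft1 and Nsdhl in Hdac4HET against WT are filled. Differences lie between -0.16 and 0.34 for Dble::R6/2 against R6/2.

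Without the transgene the Hdac4 allele came with small differences. In Hdac4HET against WT, 1 member was lower (Nsdhl) and 2 were higher (Insig1 and Fdft1), and the shares of all genes were 1.71% lower and 1.46% higher. Insig1 read 8.96, 9.13 and 9.24 (lowest, median, highest) in Hdac4HET and 8.60, 8.76 and 8.97 in WT, and 7 of the 8 Hdac4HET arrays were above every WT array. The difference was 0.36 ± 0.06 (SE, limma adjusted p = 0.0187). Nsdhl was at 80.2% of WT (-0.32 ± 0.08, limma adjusted p = 0.0354) and Fdft1 at 115% (0.20 ± 0.05, limma adjusted p = 0.0463). Cyp51 and Mvd lay close to the threshold on the higher side, at 0.22 ± 0.07 and 0.25 ± 0.07 (limma adjusted p = 0.059 and 0.0651).

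None of the 3 calls passed once the 4 arrays high in Prl were left out, when adjusted p was 0.19 for Insig1, 0.208 for Nsdhl and 0.291 for Fdft1, and 0% of all genes were lower and 0.0055% higher. Over 26 alternatives adjusted p ran between 0.00492 and 0.19 for Insig1, 0.0068 and 0.208 for Nsdhl and 0.0124 and 0.633 for Fdft1. Of those 26, Insig1 passed in 23, Nsdhl in 12 and Fdft1 in 7. Of these 4 arrays 3 are WT and 1 is Hdac4HET, and the part of the pituitary transcripts in these calls was not tested.

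The interaction term, which compares the effect of the transgene with and without the Hdac4 allele, called 0 of the 31 members and 0% of all genes (limma, all 4 genotypes). At an unadjusted p under 0.05 there were 3 members. Fdps had the largest estimate, 0.62 ± 0.24 (SE, limma adjusted p = 0.378). Insig1 (-0.30 ± 0.14, limma adjusted p = 0.487) and Dhcr7 (-0.23 ± 0.11, limma adjusted p = 0.497) had estimates of the opposite sign. None passed the adjustment.

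Neighbouring pathways were set beside the members, from lists of the isoprenoid branch, fatty acid synthesis and other sterol handling. The shares of all genes were 11.8% lower and 20.2% higher in R6/2 against WT, and 11.7% and 18.3% in Dble::R6/2 against Hdac4HET. In the isoprenoid branch, which uses farnesyl diphosphate for purposes other than sterol, 5 of 7 genes were higher and 0 lower in R6/2 against WT, and 4 of 7 were higher in Dble::R6/2 against Hdac4HET. Fnta, a subunit of protein farnesyltransferase, differed by 0.69 ± 0.09 (SE) and Dhdds, which makes the precursor of dolichol, by 0.68 ± 0.08. Pdss2, which builds the side chain of coenzyme Q, differed by 0.36 ± 0.06 and Fntb, the other farnesyltransferase subunit, by 0.31 ± 0.09. These sit opposite in sign to Fdps, the enzyme that makes their substrate.

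Of 13 genes of fatty acid synthesis and desaturation, 6 were lower and 3 higher in R6/2 against WT, with a list median of -0.14. Over all genes 11.8% were lower and 20.2% higher. The desaturases Fads2 (-0.77 ± 0.24), Scd1 (-0.59 ± 0.07) and Fads1 (-0.51 ± 0.07) and the acetyl-CoA synthetase Acss2 (-0.55 ± 0.19) were lower (log2 difference ± SE). Acacb, Me1 and Acaca were higher, a share near that of all genes. In Dble::R6/2 against Hdac4HET 6 were lower and 2 higher, beside 11.7% and 18.3% of all genes. Of 23 other genes of sterol handling, 0 were lower and 5 higher in R6/2 against WT, with a list median of 0.00. The share that was higher was near the 20.2% of all genes. The largest difference was that of Abca7, a relative of Abca1, at 1.05 ± 0.08 (SE, limma adjusted p = 3.25e-08), and it was 1.07 ± 0.11 in Dble::R6/2 against Hdac4HET. Mbtps1, the protease that makes the first cut in SREBP, differed by 0.30 ± 0.06. In Dble::R6/2 against Hdac4HET 4 of the 23 were lower and 4 higher, so the lack of lower genes did not repeat.

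Markers of cell types moved in the same arrays. Over all genes, 11.8% were lower and 20.2% higher in R6/2 against WT, and 11.7% and 18.3% in Dble::R6/2 against Hdac4HET. In R6/2 against WT, 10 of 14 astrocyte markers were lower and 1, Gfap, was higher, 11 of 12 neuron markers were lower, 7 of 14 oligodendrocyte markers were lower and 7 of 11 microglia markers were lower. Median log2 differences were -0.32 for astrocytes, -0.38 for neurons, -0.28 for oligodendrocytes and -0.47 for microglia, beside -0.51 for the sterol enzymes. Of the 7 endothelial markers 1 was higher and 0 lower. Dble::R6/2 against Hdac4HET gave 9 astrocyte, 11 neuron, 6 oligodendrocyte and 9 microglia markers lower. In these 4 lists 0 were higher there, so Gfap was not called higher. Of the endothelial markers 1 was lower and 1 higher there. Snap25, a synaptic gene of neurons, was at 13.45 in WT, in the cortex as labelled.

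On the scale of a list mean minus the mean of WT, the sterol enzymes lay between -0.64 and -0.39 in Dble::R6/2, -0.68 and -0.30 in R6/2, -0.16 and 0.07 in Hdac4HET and -0.08 and 0.09 in WT. The groups with the transgene did not overlap those without it. Astrocyte markers ran between -0.42 and -0.26 in Dble::R6/2, -0.42 and -0.29 in R6/2, -0.08 and 0.06 in Hdac4HET and -0.06 and 0.10 in WT, which also left the groups apart. Neuron markers ran between -0.57 and -0.26 in R6/2 and between -0.04 and 0.07 in WT, and microglia markers between -0.95 and -0.35 in R6/2 and between -0.33 and 0.21 in WT. Oligodendrocyte markers ran between -0.49 and -0.17 in R6/2 and between -0.68 and 0.33 in WT, and overlapped through WT replicate 4 alone, the other 7 WT arrays lying between -0.08 and 0.33. The summed level of the astrocyte markers was 14.59 to 14.81 on the log2 scale in R6/2 and 14.96 to 15.13 in WT, and all 14 averaged above the array medians. The part of these cell types in the fall of the sterol genes was not tested.

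**Figure D5:**
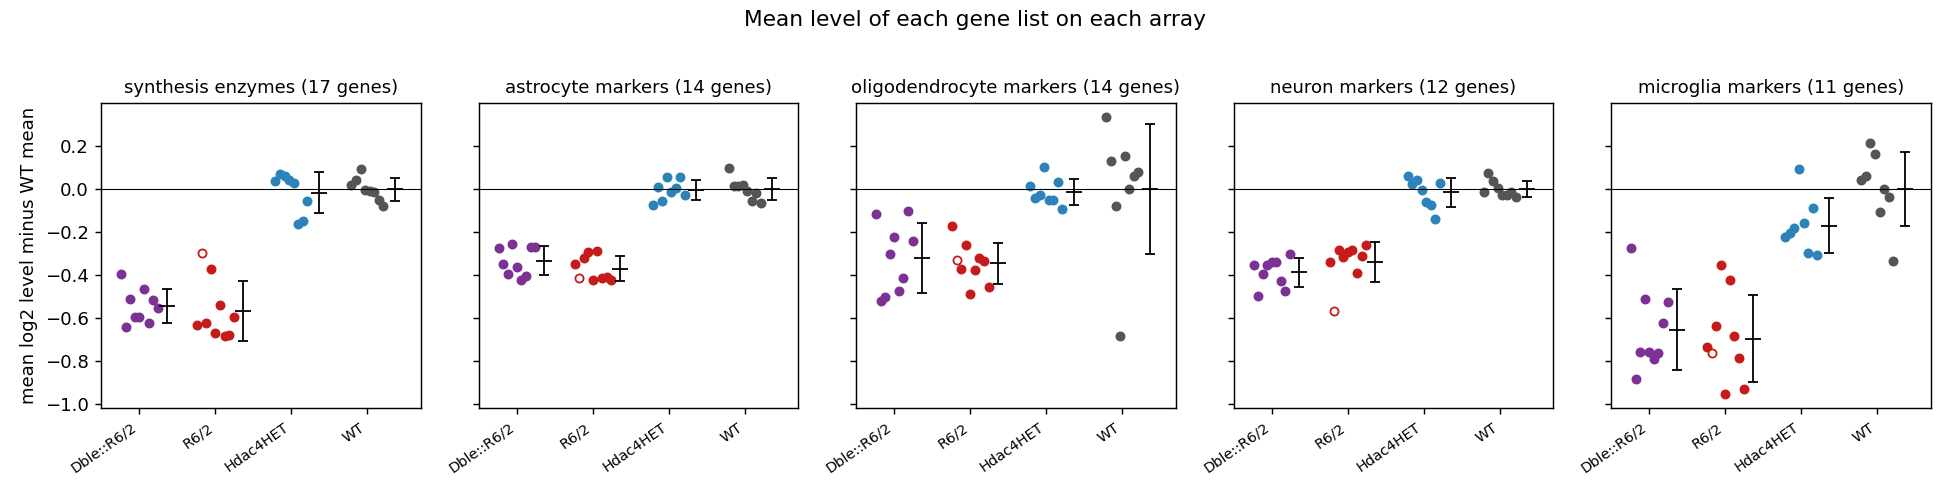
Mean log2 level of each gene list on each array, minus the mean of that list over the WT arrays (vertical axis), for the 17 sterol enzymes and for markers of 4 cell types, in Dble::R6/2, R6/2, Hdac4HET and WT cortex. Points are single mice, the black mark and bar are the mean and SD, and the open point is R6/2 replicate 2. Sterol enzymes, astrocyte markers and neuron markers are lower on every array with the transgene than on every array without it.

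Variation between mice of a genotype was not tested. R6/2 cortex had a median SD of 0.26 over the 17 enzymes, against 0.13 in WT. The R6/2 value includes replicate 2, and the SD was not taken without that array. Over all genes the median SD was 0.17 in R6/2 and 0.14 in WT. In Dble::R6/2 the enzymes had a median SD of 0.19, against 0.16 in Hdac4HET. Across 19 members with several probe sets, 12 of the 18 other probe sets of the genes lowered in R6/2 against WT were lower too, and 1 of all 34 others, a dim probe set of Npc2, was called in the opposite direction.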

How the data were processed

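Cortex RNA of individual mice was hybridised to Affymetrix whole-genome mouse arrays, and arrays of poor quality had been excluded by the authors. The authors deposited log2 expression per probe set. How background, normalization and probe summary were handled is not given in the sources used here. Of 45037 probe sets, the platform annotation gives 34945 a single gene symbol, 932 several and 9160 none. A RefSeq table (GRCm38.p6) served to update symbols, and each of 18193 genes was read from its brightest probe set, by the mean of all arrays. Genotype and replicate came from the labels, columns were matched by name, and 0 columns of no sample were used. The members and gene lists were chosen with earlier results of these data known.

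Each pair of genotypes was fitted on its own arrays without covariates (limma 3.58.1, lmFit then eBayes, under R 4.3.3), with Benjamini-Hochberg adjustment over all probe sets and calls at an adjusted p of 0.05 or less. The interaction used the 4 genotypes together. A log2 difference is the mean of one genotype minus that of the other, and its p reflects the spread between mice. Dim probe sets stayed in. The fits were also run on simulated data with independent noise for each probe set and array. Such data hold no array that stands apart, and no result here rests on them. Full values were given for the 10 called enzymes and regulators with the largest change in R6/2 against WT and for every called transport gene, and up to 4 called genes were named from each neighbouring list. Other members with values were chosen after these had been seen.

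Alternatives were quantile normalization, the brighter probe sets alone, the methods' t-test (2-tailed, equal variance), all 4 genotypes in a single fit, labelled sex as a covariate, a block for replicate number, eBayes with trend and robust options, a change over 30%, averaging every probe set of a gene, and leaving out each array in turn. Sex read from Xist and a fit without the 4 Prl-rich arrays (log2 level over 8) were added after seeing the data. Figures were drawn with matplotlib 3.10.9.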

Additional observations from a re-analysis of the deposited data

Results flagged for a closer look

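In 124 groups (31 members in 4 genotypes), the highest or lowest value was set against the rest of its group by Dixon's test. Of these values 21 stood apart, several of them on the same array. Chance marks about 1 in 20 groups.

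Of these 21 values, 9 came from R6/2 replicate 2, the array with keratin transcripts. It was highest of the R6/2 arrays for Fdft1 (10.37), Tm7sf2 (7.70), Hsd17b7 (8.85) and Cyp46a1 (10.78). It was lowest for Ebp (6.12), Srebf2 (7.61), Scap (9.44), Apoe (9.80) and Lrp1 (9.58). R6/2 replicate 3 was lowest for Nr1h3 (4.05).

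In Dble::R6/2, replicate 1 was highest for Sqle (8.64), replicate 8 was highest for Cyp51 (7.72) and lowest for Stard4 (6.80), replicate 2 was lowest for Npc1 (6.97), replicate 7 was lowest for Nr1h3 (4.20) and replicate 6 was highest for Lrp1 (10.20). In Hdac4HET, replicate 4 was highest for Hmgcs1 (12.32), replicate 7 was lowest for Dhcr7 (8.25), replicate 1 was lowest for Srebf1 (7.95) and replicate 6 was lowest for Scap (9.35). In WT, replicate 8 was lowest for Msmo1 (8.79).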

How the results depend on the processing

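For R6/2 against WT, 17 members and 13 enzymes were lower, and leaving out 1 array at a time gave 17 to 19 members and 13 to 14 enzymes. The count of higher members was 5, and it was 3 without the arrays high in Prl, 2 with a change over 30% and 3 to 5 with 1 array left out. For Dble::R6/2 against Hdac4HET, 16 members and 12 enzymes were lower (16 to 17 and 12 to 13 with 1 array left out). There 4 members were higher, 2 with a change over 30% and 3 to 5 with 1 array left out. For Hdac4HET against WT, the count of lower members (1, an enzyme) was 0 by the methods' t-test, with all 4 genotypes in 1 fit, with a change over 30%, with sex read from Xist and without the arrays high in Prl, and 0 to 3 with 1 array left out. The count of higher members (2) was 4 in the brighter probe sets, 1 by the methods' t-test, 1 with the mean of all probe sets and 1 to 5 with 1 array left out. It was 0 with all 4 genotypes in 1 fit, with a change over 30%, with sex read from Xist and without the arrays high in Prl. For Dble::R6/2 against R6/2 and for the interaction the counts were 0 under every alternative run. Shares of all genes moved too. For Hdac4HET against WT they were 1.71% lower and 1.46% higher, and 0% and 0.0055% once the 4 Prl-rich arrays were dropped. For R6/2 against WT they went from 11.8% and 20.2% to 8.72% and 13.7%. For Dble::R6/2 against Hdac4HET they went from 11.7% and 18.3% to 11.3% and 17.2%. Whether member counts shifted more than these shares was not tested, and neither were the causes of the shifts.

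With the replicate number as a block, the count of higher members was 3 for R6/2 against WT and 1 for Hdac4HET against WT. The other counts stayed within 1.5 times, with 17 and 16 members lower under the transgene. Deviations of same-numbered arrays correlated above 0.1 in 4 of 8 pairs for R6/2 against WT and 3 of 8 for Dble::R6/2 against Hdac4HET. They did so in 3 of 8 for Hdac4HET against WT and 6 of 9 for Dble::R6/2 against R6/2. The arrays that correlated best with their own number were 0, 1, 2 and 3 in that order. These counts do not settle whether the numbers pair the mice.

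Among called genes, no direction reversed. Over alternatives that keep all arrays or change the set by more than 1 array, 231 gene results kept their call and 11 lost it for R6/2 against WT, 215 kept and 5 lost it for Dble::R6/2 against Hdac4HET, and 17 kept and 16 lost it for Hdac4HET against WT. The dim probe set of Nr1h3 limits what can be seen of that gene.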
